A study of Drosophila melanogaster with 2 samples.

Results

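The 6 Drosophila melanogaster genes hng3, CHES-1-like, CG7560, Ids, DIP1 and ARY were examined for binding of Dan, and they were chosen from these same data for the number of Dan peaks lying nearest to their start sites. They had been proposed as compact genes with clustered peaks and are 6 of the 13968 protein-coding genes annotated on the 7 chromosome arms of the Release 6 assembly, with X and Y counted as arms. Together they were the nearest protein-coding genes to 29 of the 1170 peaks in the conservative list of the study. The counts of peaks per gene are therefore a description and carry no test.

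The study immunoprecipitated chromatin from whole embryos aged 0 to 8 h of the strain dan-GFP, whose insertion is labelled as targeting dan and which expresses a dan-eGFP fusion protein, with an antibody against GFP. There were 2 biological replicates of this 1 genotype and no second group, so that no condition could be compared. Chromatin was sonicated, with fragments of 200 to 800 bp. The embryos were not dissected and their sex was not recorded, so the peaks pool the cell types of the whole embryo. The deposited lists give regions and their signal, a measure of enrichment whose scale could not be learnt from the labels or the lists. No read count accompanies them, so the depth behind a signal is unknown, and control libraries were not analysed here.

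Dan (Distal antenna) is a nuclear DNA-binding protein of the Pipsqueak family, known for its part in antenna and eye development and in the timing of neuroblast competence in the embryo. In chromatin immunoprecipitation a peak marks DNA that was recovered with the tagged protein, directly or through other proteins, and a nearby gene is a neighbour of the peak and not necessarily its target. The members come from unrelated families. hng3 encodes a MADF domain protein, the domain type of the transcription factor Adf1, and CHES-1-like encodes a forkhead transcription factor. Ids encodes iduronate 2-sulfatase, a lysosomal enzyme that degrades heparan and dermatan sulfate, DIP1 (DISCO Interacting Protein 1) a protein that binds double-stranded RNA, and ARY an aldo-keto reductase encoded on Y. CG7560 is annotated only as an uncharacterized protein.

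The bases around 9 of the summits are given first, 100 bp on either side, as examples of the DNA under the peaks. A single peak need not stand for the other peaks of its gene. They are the strongest peak of each gene and a second hng3 peak with a pair of copies of the letters CAGTG. Added to these is the only pair of peaks from different members that share a long run of identical bases. The letters CAGTG, read on either strand, are in capitals, and all sequences are RefSeq's, in the Release 6 (dm6) assembly.
hng3 peak 1, chr3L:725923-726123, plus strand: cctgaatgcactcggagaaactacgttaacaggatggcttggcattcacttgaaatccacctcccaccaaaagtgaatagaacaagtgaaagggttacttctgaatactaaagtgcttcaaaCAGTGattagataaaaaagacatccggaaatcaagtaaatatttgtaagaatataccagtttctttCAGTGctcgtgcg
hng3 peak 5, chr3L:762433-762633, plus strand: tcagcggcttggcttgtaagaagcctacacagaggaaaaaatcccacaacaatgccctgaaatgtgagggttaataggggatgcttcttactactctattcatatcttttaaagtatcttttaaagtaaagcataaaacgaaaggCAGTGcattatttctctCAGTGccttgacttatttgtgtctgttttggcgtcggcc
CHES-1-like peak 4, chrX:7706924-7707124, plus strand: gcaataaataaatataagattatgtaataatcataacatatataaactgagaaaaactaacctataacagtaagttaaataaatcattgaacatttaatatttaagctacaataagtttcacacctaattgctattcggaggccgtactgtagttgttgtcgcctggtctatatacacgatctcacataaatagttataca
CG7560 peak 3, chr3L:11416850-11417050, plus strand: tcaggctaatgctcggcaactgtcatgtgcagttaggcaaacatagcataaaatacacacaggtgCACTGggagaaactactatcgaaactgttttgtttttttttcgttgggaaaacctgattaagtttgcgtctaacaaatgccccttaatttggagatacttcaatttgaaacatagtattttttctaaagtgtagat
CG7560 peak 4, chr3L:11418331-11418531, plus strand: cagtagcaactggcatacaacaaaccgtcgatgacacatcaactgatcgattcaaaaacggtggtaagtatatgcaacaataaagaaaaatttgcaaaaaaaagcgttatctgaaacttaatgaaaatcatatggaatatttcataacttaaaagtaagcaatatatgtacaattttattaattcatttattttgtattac
Ids peak 2, chr3L:3394963-3395163, plus strand: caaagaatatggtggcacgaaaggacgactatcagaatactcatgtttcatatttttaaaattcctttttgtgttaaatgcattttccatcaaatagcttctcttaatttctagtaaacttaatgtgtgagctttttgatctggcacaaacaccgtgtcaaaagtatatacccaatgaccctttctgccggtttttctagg
Ids peak 3, chr3L:3395449-3395649, plus strand: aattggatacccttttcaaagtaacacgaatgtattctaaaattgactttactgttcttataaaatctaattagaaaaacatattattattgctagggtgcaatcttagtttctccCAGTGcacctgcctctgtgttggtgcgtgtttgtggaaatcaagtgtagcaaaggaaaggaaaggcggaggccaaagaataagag
DIP1 peak 1, chrX:21713538-21713738, plus strand: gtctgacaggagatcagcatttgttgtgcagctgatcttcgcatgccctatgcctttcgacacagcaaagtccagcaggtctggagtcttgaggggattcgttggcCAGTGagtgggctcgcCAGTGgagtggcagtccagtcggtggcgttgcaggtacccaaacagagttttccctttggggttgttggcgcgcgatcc
ARY peak 5, chrY:989310-989510, plus strand: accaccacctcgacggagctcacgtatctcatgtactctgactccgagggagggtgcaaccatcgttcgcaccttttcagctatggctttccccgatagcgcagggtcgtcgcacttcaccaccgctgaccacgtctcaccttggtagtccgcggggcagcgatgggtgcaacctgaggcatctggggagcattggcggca
The strongest peaks of CHES-1-like, CG7560, Ids and ARY held no CAGTG in this window, whereas those of hng3 and DIP1 held 2 copies each. The CHES-1-like sequence is rich in A and T (27.9% G and C), and the ARY sequence is the opposite (60.7% G and C).

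The name compact genes with clustered peaks described few of the members. hng3 spans 17810 bp, longer than 91.7% of protein-coding genes, and CHES-1-like spans 27048 bp, longer than 94.6%, against a median of 2164 bp. DIP1 spans 5353 bp. CG7560 (1238 bp), ARY (1619 bp) and Ids (1816 bp) are shorter than the median. Of the 29 summits, 6 fell within a member's annotated span, 4 in CHES-1-like and 2 in hng3, and none fell in CG7560, Ids, DIP1 or ARY. The same share over all conservative summits is not given here, so whether 6 of 29 is low was not tested. Across all protein-coding genes, 88 (0.63%) held at least 2 conservative summits in their span. The members share instead that they were the nearest protein-coding gene to many peaks: 6 peaks each for hng3 and DIP1, 5 for ARY, and 4 each for CHES-1-like, CG7560 and Ids. Of all protein-coding genes, 865 (6.19%) were nearest to at least 1 peak and 18 (0.129%) to at least 4. Members with 4 peaks were among 11 genes at that count, and 23 genes stood just below it with 3.

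**Figure D1:**
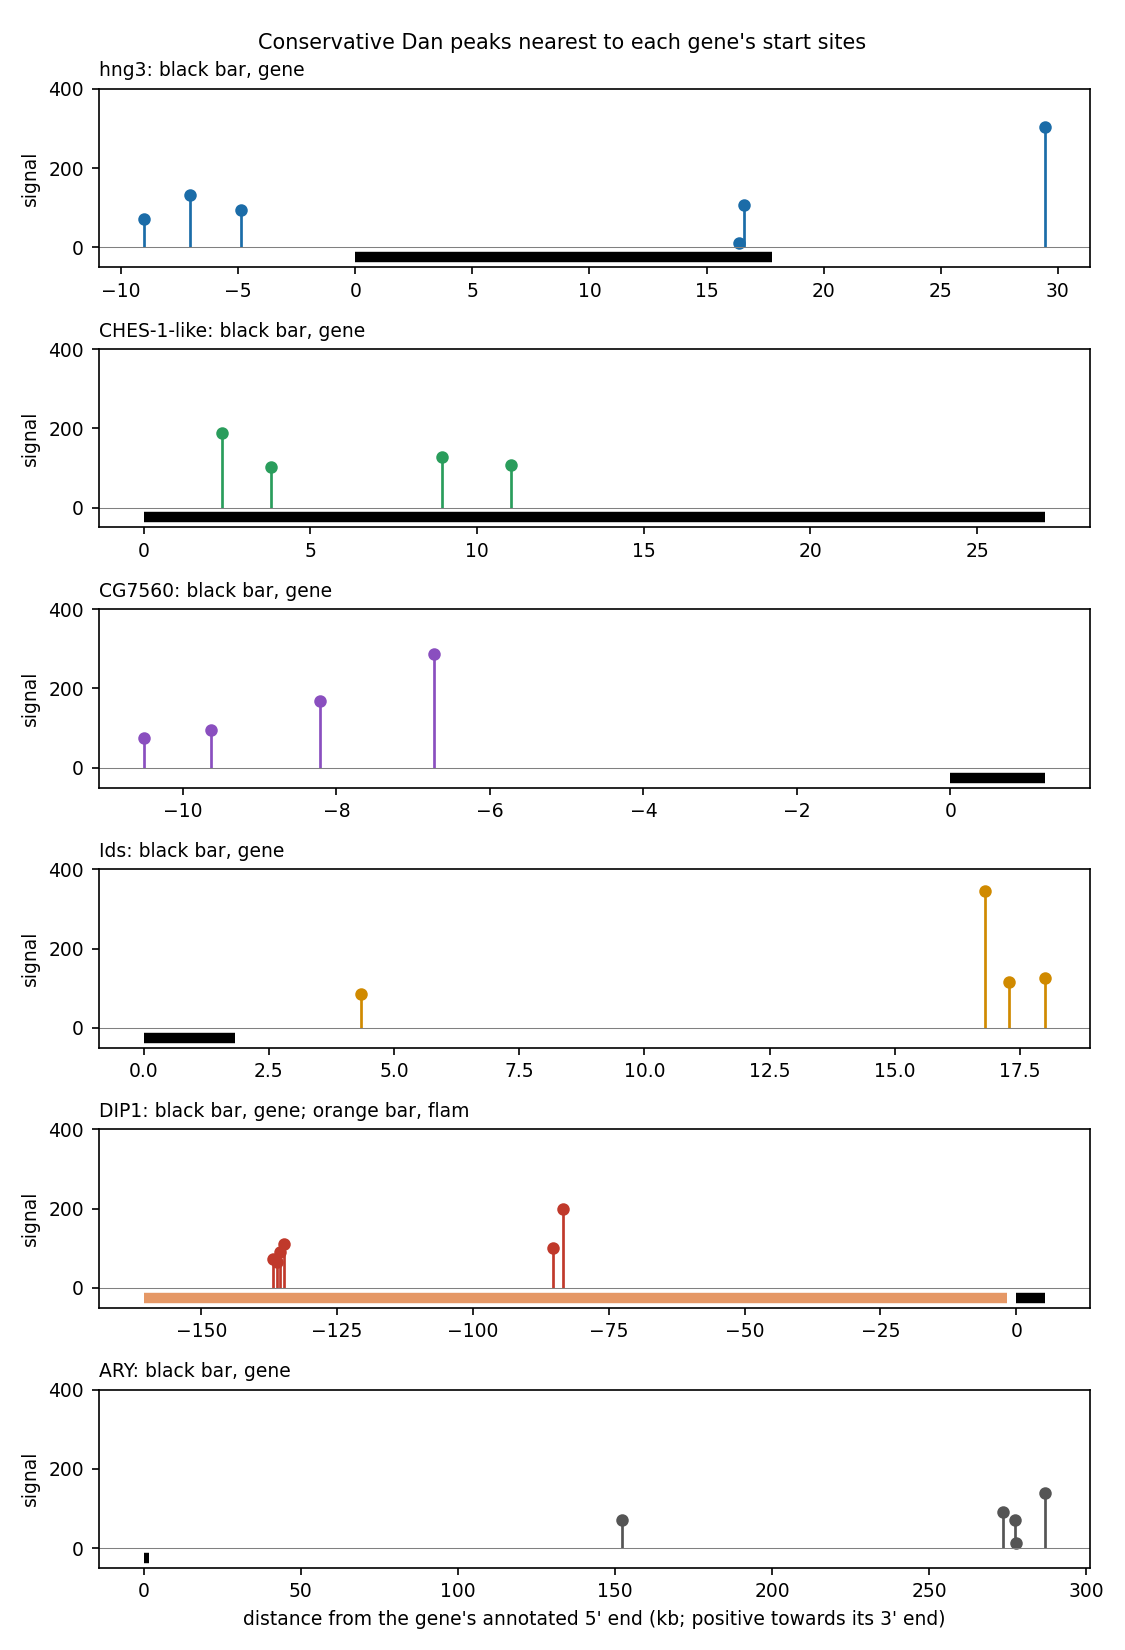
Signal of each conservative peak (vertical axis, the deposited enrichment value) against its distance from the gene's annotated 5' end in kb (horizontal axis, a different range in each panel), with black bars for the genes and an orange bar for the non-coding locus flam. The peaks of CHES-1-like lie within the gene, those of CG7560 and Ids lie outside it, and those of DIP1 and ARY lie at least 83490 bp away.

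The DNA behind these counts was of 2 kinds, a division made after the values were seen. At hng3, CHES-1-like, CG7560 and Ids, 18 peaks lay 241 to 18007 bp from the nearest protein-coding start site. Every 31-base word in all 18 occurred once in the assembly, as it did in 1003 of all 1078 conservative peaks on the arms. At DIP1 and ARY, 11 peaks lay 83490 to 286980 bp away, and 1 of the 11 was made only of single-copy words. Fewer than 50% of the words were single-copy in 7 of those 11, against 45 of the 1078 conservative peaks on the arms (4.17%).

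hng3 lies on the minus strand of 3L (chr3L:737680-755489, FBgn0035160) and has 2 annotated transcripts with different starts. Its strongest peak, peak 1 (chr3L:725914-726105), lay between genes, 13326 bp downstream of the nearer start, with a signal of 305 in the pooled list (rank 80 of the 1170). It had a signal of 146 in replicate 1 and 156 in replicate 2, and both replicates' own thresholded lists held it. A neighbouring peak 1288 bp away (chr3L:724642-724845) reached 335 in the pooled list, with 176 and 163 in the replicates, but was nearest to the start of another gene, CG13896. The pair thus stands closer to each other than to any hng3 exon, and only the rule of the nearest start divides it between genes.

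Peaks 2 and 3 of hng3 were the only 2 of the 29 within 500 bp of a protein-coding start site. That position was taken by 38.3% of all conservative peaks on the arms. Starts of non-coding genes were not counted, and that of Su(Ste):CR42432 lay 265 bp from the nearest ARY peak. Peak 2 (chr3L:738732-739081) lay in an intron, 442 bp from the internal start, with a pooled signal of 108. Peak 3 (chr3L:738933-739282), in a coding exon, overlapped it and had a pooled signal of 12.3. In each replicate both overlapped the same region, of signal 59.9 in replicate 1 and 52.8 in replicate 2, so these 2 list entries are 1 region of the replicates. Such low entries recur in the list: 28 peaks on the arms had a signal under 20, and 27 of them overlapped a neighbour.

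The remaining 3 hng3 peaks stood upstream of the gene, 1991 to 2182 bp apart. Peak 4 (chr3L:760176-760525), 4862 bp upstream, had signals of 56.2 and 51.5 in replicates 1 and 2, and only replicate 2's thresholded list held it. Peak 5 (chr3L:762358-762707), 7044 bp upstream, had 61.1 and 60.9 and was held only by that of replicate 1. Peak 6 (chr3L:764349-764698), 9035 bp upstream, had 35.2 and 34.0 and was in neither list. By rank, peaks 4, 5 and 6 stood at 812, 717 and 2023 in replicate 1 and at 599, 435 and 2470 in replicate 2. Within replicate 2, peak 4 was listed at 51.5 and peak 5 was not at 60.9. emc, which encodes a helix-loop-helix protein that inhibits proneural factors, lies inside the hng3 span, and its start was 10292 bp from the nearest of the 6 peaks.

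CHES-1-like (chrX:7682338-7709385, minus strand, FBgn0029504) was the member whose peaks lay within the gene. All 4 were in introns, 606 to 3743 bp from the nearest of its starts and 1455 to 5122 bp from each other. Peak 4 (chrX:7706930-7707023) was the strongest, with a pooled signal of 188 (rank 220), 109 in replicate 1 and 83.6 in replicate 2. Peak 1 (chrX:7698200-7698549) had 56.5 and 53.8, and peak 2 (chrX:7700272-7700621) 70.8 and 54.4. These 3 were in both thresholded lists. Peak 3 (chrX:7705394-7705743) was less even, with 71.5 in replicate 1 (rank 530) and 32.5 in replicate 2 (rank 3057), and replicate 1 alone listed it. A region over the 5' untranslated region (chrX:7709000-7709349) was in the second, longer pooled thresholded list (1396 regions) with a signal of 70.3. It had 53.8 in replicate 1 and no region in replicate 2, so binding at the 5' end of the gene was recorded in 1 replicate only.

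CG7560 (chr3L:11425158-11426395, plus strand, FBgn0036157) had a row of 4 peaks upstream, none of them in a gene. Their summits were 10510, 9637, 8208 and 6727 bp from its start, with 873, 1429 and 1481 bp between them. Among these 4, pooled signal rose along the row towards the gene, from 74.5 through 95.6 and 168 to 287. In replicate 1 the values were 39.9, 51.3, 120.1 and 168, and in replicate 2 they were 33.8, 45.9, 55.3 and 122, in the same order. The lists of the replicates did not divide the row alike. Replicate 1 listed 3 of the 4 and replicate 2 only the strongest, peak 4 (chr3L:11418256-11418605, pooled rank 88). Replicate 2's thresholded list was the shorter throughout, with 600 regions against 1071. Replicate 1 listed a further region 2704 bp from the start (signal 78.6) for which replicate 2 had no region. It listed another 7329 bp from the start, of 65.6 in replicate 1 and 17.0 in replicate 2. This last region lay between peaks 3 and 4 and had a pooled ranked signal of 104, below both. The rise thus held for the 4 conservative peaks and not for every region of the row. Within 20000 bp of CG7560, 1 more conservative peak lay in an exon of lncRNA:CR44363, with a signal of 203 and CG44362 as nearest coding gene. The transcribed part of CG7560 held no region of the pooled ranked list, among 130105, and 1 of replicate 1's, with a signal of 11.1.

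Ids (chr3L:3378268-3380083, plus strand, FBgn0035445) had its peaks downstream. Peak 1 (chr3L:3382442-3382791) stood alone 4349 bp from the start, with 49.1 in replicate 1 and 31 in replicate 2, and neither replicate's list held it. The other 3 formed a group 12446 bp further on, 486 and 726 bp apart. Peak 2 (chr3L:3394957-3395176) had the highest signal of all 29, 345 in the pooled list (rank 59), 186 in replicate 1 (rank 82) and 211 in replicate 2 (rank 28). Peak 3 (chr3L:3395374-3395723) had 91.2 and 60.8 and was in both lists. Peak 4 (chr3L:3396100-3396449) had 84.9 and 34.9, and only replicate 1 listed it. The group lay 975 bp from the start of the non-coding RNA gene lncRNA:CR45737 and 28660 bp from that of sty, which encodes the receptor tyrosine kinase antagonist Sprouty, so that Ids is neither the closest transcript nor the only coding gene on that side. Within Ids itself the strongest of 2 ranked regions had a pooled signal of 40.9 (rank 12726), with 17.3 and 15.6 in the replicates. The median signal of the pooled ranked list was 20.3.

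**Figure D2:**
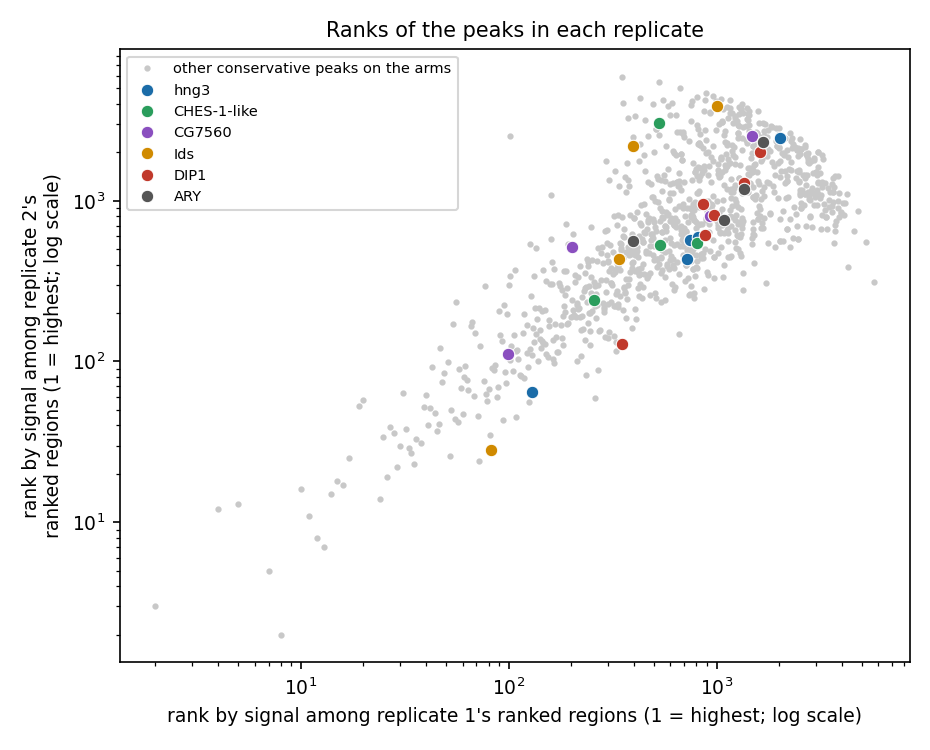
Rank of each conservative peak by signal in replicate 1 (horizontal, log scale, 1 the highest) against replicate 2 (vertical, log scale), with grey points for other peaks on the arms. Peak 2 of Ids is the coloured point nearest the origin, at ranks 82 and 28, and the coloured points farthest up belong to Ids and CHES-1-like, at ranks 3881 and 3057 in replicate 2.

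All 6 peaks counted for DIP1 (chrX:21624796-21630148, minus strand, FBgn0024807) were in an intron of lncRNA:flam (chrX:21631891-21790731). This is flamenco, a locus packed with transposon remnants that is known as the source of piwi-interacting RNAs restraining gypsy-type retrotransposons in the somatic cells of the ovary. flam starts 1743 bp from DIP1. The nearest of the 6 lay 83490 bp from the DIP1 start, and no region of any thresholded list fell within 20000 bp of DIP1. Inside DIP1 the highest pooled ranked signal was 18.6 (rank 71240).

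Within flam the peaks formed a pair and a row of 4, separated by 49645 bp. Peak 1 (chrX:21713463-21713812) had a pooled signal of 199 (rank 195), 89.6 in replicate 1 and 115 in replicate 2, and was in both lists. It and peak 2 (chrX:21715183-21715532, 53.1 and 51.3) lay in annotated remnants of the elements Stalker4 and G6, with 9.69% and 19.1% of their words single-copy. The row of 4, 583 to 727 bp apart, had pooled signals of 111, 91.0, 65.8 and 72.5, and 75.3% to 100% of its words were single-copy. Of these 4, only peak 3 (chrX:21764828-21765177, 53.6 and 43.3) was in the replicates' lists. Where a word occurs more than once, reads cannot be placed by it alone. The labels do not say how the authors treated such reads, and the part of repeated sequence in the signal was not tested. The second pooled thresholded list added 2 regions in flam, of signal 71.3, in a gypsy6 remnant, and 34.3.

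ARY (chrY:702430-704048, plus strand, FBgn0058064) had no thresholded region within 20000 bp, and its span held 1 pooled ranked region, of signal 3.66 (rank 125309). Its 5 peaks lay 152163 to 286980 bp from its start, 5 of the 7 conservative peaks on Y. Peak 5 (chrY:989235-989584) was the strongest, with a pooled signal of 139 (rank 356), 84.7 in replicate 1 and 53.1 in replicate 2, and was the only one in both lists. Peak 2 (chrY:975716-976065) had 46.9 in each replicate and was listed by replicate 1. Peak 1 (chrY:854418-854767) had 41.7 and 40.5 and was in neither list. Peaks 3 and 4 (chrY:979645-979994 and chrY:979844-980193) overlapped, had pooled signals of 69.7 and 11.9, and matched the same region in each replicate (37.9 and 34.3). Both lay in an exon of Su(Ste):CR42432, 1 of 27 annotated Su(Ste) genes, the Y-linked repeats known for silencing the Stellate genes in the testis. No other Su(Ste) gene held a conservative peak. The share of single-copy words in the 5 peaks ran from 6.88% to 49.1%, and the words of peak 4 had a median of 57.5 copies. The second pooled thresholded list added a region in an opus element (chrY:787582-787931, signal 82.2) that had 62.1 in replicate 2 and no region in replicate 1. It also added a region (chrY:945426-945775, signal 71.9) with 17.2 in replicate 1 and 55.2 in replicate 2.

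**Figure D3:**
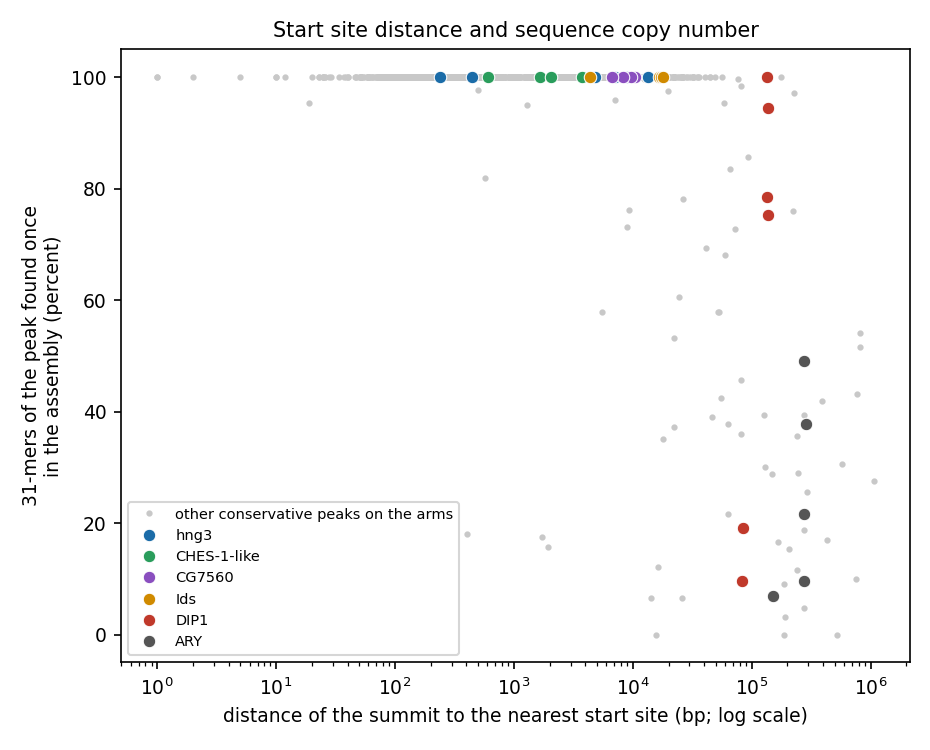
Share of a peak's 31-base words that occur once in the assembly (vertical, percent) against the distance of its summit from the nearest protein-coding start site (horizontal, bp, log scale). The 18 peaks of hng3, CHES-1-like, CG7560 and Ids sit at 100%. The 11 of DIP1 and ARY are at least 83490 bp from such a start and range from 6.88% to 100%.

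Of the 29 member peaks, 12 overlapped regions of both replicates' thresholded lists and 9 overlapped neither. Over all 1078 peaks on the arms, 450 (41.7%) were in both and 315 in neither. The thresholded lists differ in length, with 1071 regions in replicate 1 and 600 in replicate 2. Replicate 1's list held 62.1% of the 29 and 66.5% of all peaks on the arms. Replicate 2's held 48.3% and 46%. By gene, the peaks in both lists were 3 of 6 at hng3, 3 of 4 at CHES-1-like, 1 of 4 at CG7560, 2 of 4 at Ids, 2 of 6 at DIP1 and 1 of 5 at ARY. Those in neither were 1 each at hng3, CG7560 and Ids, 3 each at DIP1 and ARY, and none at CHES-1-like. All 29 overlapped a region of each replicate's ranked list. The median signal over the 29 was 102 and over all peaks on the arms 104. The deposited -log10 q of the 29 ran from 0.112 (ARY peak 4) to 1.79 (hng3 peak 1, CG7560 peak 4 and Ids peak 2). No cut on q was applied here. A second summit lay within 5000 bp for 26 of the 29, against 300 of the 1078 (27.8%), a contrast that the choice of genes with many peaks carries in itself.

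Base composition was summarised for the same 2 kinds of DNA, with no test. The mean share of G and C within 100 bp of the summit was 34.6% ± 8.37 (SD, 18 peaks) at hng3, CHES-1-like, CG7560 and Ids and 50.1% ± 6.41 (SD, 11 peaks) at DIP1 and ARY. Over all 1078 peaks it was 39.4% ± 9.64 (SD). No DIP1 or ARY peak was below 40.8%. Among the 18, hng3 peak 3, the coding exon entry, at 60.2% and CHES-1-like peak 2 at 41.8% were above that value. hng3 peak 5 stood just under it at 40.3%. These SDs describe the spread among peaks, which are not replicates.

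**Figure D4:**
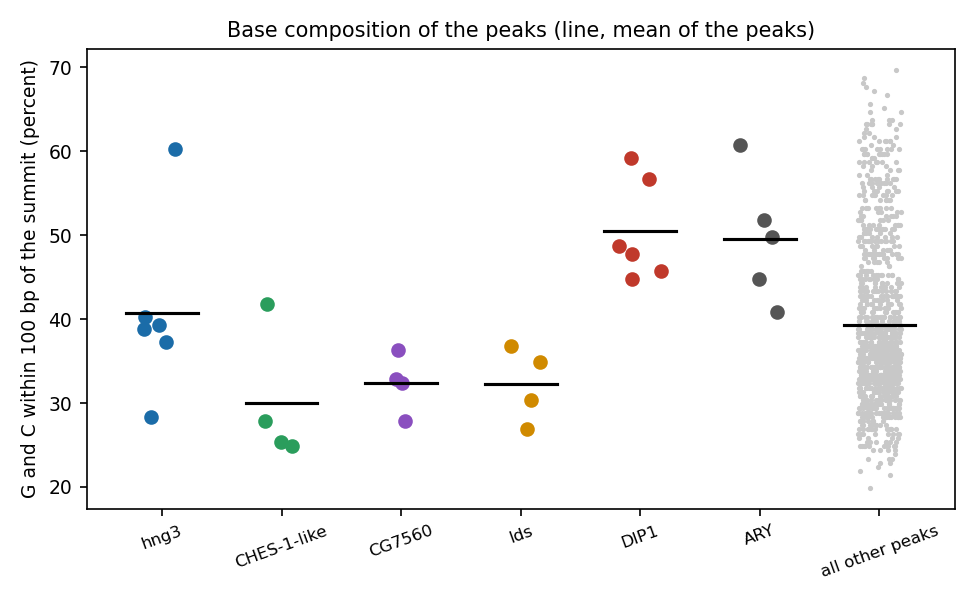
Share of G and C within 100 bp of each summit (vertical, percent) by gene, with 1 point per peak and a black line for the mean of the peaks. The means are 40.7% for hng3, 30.0% for CHES-1-like, 32.3% for CG7560, 32.2% for Ids, 50.5% for DIP1 and 49.6% for ARY.

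Several short motifs were searched on both strands in the 201 bp around each summit. CAGTG was in 14 of the 29 member peaks and in 54.0% of all 1078. It was in 5 of 6 hng3 peaks, 3 of 4 Ids peaks and 2 of 4 CHES-1-like peaks, but in 1 of 4 at CG7560, 2 of 5 at ARY and 1 of 6 at DIP1. GAGAGA, letters bound by the GAGA factor, was in 4 of 29 and 11.3% of all. CGATA, part of sites known for DREF and BEAF-32, was in 7 of 29, 5 of them at DIP1 and ARY, and in 22.9% of all. TTTTTTG was in 4 of 29 and 12.6% of all. CAGGTAG, the site of the early activator Zelda, was in none of the 29 and in 1.3% of all.

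The bases before CAGTG were not evenly spread among the peaks. Among its 826 occurrences in the 1078 peaks, T stood 6, 5 and 3 bases ahead in 45.5%, 44.7% and 40.1%, against 26.1%, 26.2% and 28.5% in 57413 occurrences among the 125482 ranked regions on the arms that missed the conservative list. Keeping the letters held by at least 40% of occurrences gives TTNTNNCAGTG. It was in 161 peaks (14.9%) and in 1.8% of those weaker regions, where CAGTG itself was in 35.7%. The letters were read from these same peaks, members included, and the weaker regions were richer in G and C (mean 47.6%), so the shares are a description. TTNTNNCAGTG was in 7 of the 18 peaks at hng3 (3), Ids (2), CHES-1-like (1) and CG7560 (1), and in none of the 11 at DIP1 and ARY. In the sequences above it can be read in hng3 peaks 1 and 5, in Ids peak 3 as ttctccCAGTG, and in CG7560 peak 3 as the same letters on the minus strand. The matches in Ids peak 3 and CG7560 peak 3 belong to a single run of bases that both peaks contain, described next.

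No pair of separate peaks within any of the 6 genes had a 31-base word in common. Shorter runs were not searched for within a gene, so diverged copies could not be seen. Among 348 pairs of peaks from different members, the longest run in common was the 21 bases below, between CG7560 peak 3 and, on the opposite strand, Ids peak 3. The run contains the CAGTG of each.
shared run, chr3L:11416909-11416929, plus strand: caggtgCACTGggagaaacta
It occurred 2 times on the 7 arms, which are these 2 peaks. The next longest run of identical bases between members was 12 bases. Runs with a mismatch were not searched for. In the sequences above, hng3 peak 1 holds the similar letters tgcactcggagaaactac, where the CACTG of the run reads cactc.

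Related genes were read from lists of the members' families. Of 7 other MADF domain genes, 1 was nearest to a conservative peak, Adf1, whose intronic peak had the highest signal of all 1078 (1079). Of 14 other forkhead genes 3 were, slp2 (249, 4321 bp from its start), FoxL1 (153, 1917 bp) and foxo (107, 3359 bp), each with 1 peak. The 4 peaks of CHES-1-like are no comparison with these, since it was chosen for that count. Sulf1, an extracellular heparan sulfate sulfatase, was the only 1 of 7 other sulfatase genes (154, in its intron). Of 11 other Y-linked genes, FDY and WDY were nearest to 1 peak each, at 191019 and 239596 bp. No other gene of 10 in the list for double-stranded RNA binding, nor any of 5 in a list of folate enzymes set beside CG7560, was nearest to one. All these shares stand beside 6.19% of protein-coding genes. dan itself was nearest to 4 peaks, with signals of 69.5 to 269, 1 of them within the gene.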

How the data were processed

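Per the labels, the samples were 2 biological replicates of anti-GFP chromatin immunoprecipitation from dan-eGFP embryos, mapped to dm6. The aligner and peak caller: not given in the sources used here. The authors deposited ranked and thresholded regions for each replicate and for both together, with a signal value, a scaled score from the irreproducible discovery rate (IDR), and -log10 q-values. The lowest score in the conservative list stands for an IDR of 0.01. The second pooled thresholded list had the same lowest score, 830, but held 1396 regions against 1170. Because 16 columns of the pooled ranked lists carry no sample name, they were not used, and replicate signals were read from each replicate's own ranked list by largest overlap. Signals were compared by rank within a list, since the scale may differ between lists. No read counts are in the lists used, so no interval from depth could be given.

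Summits were tied to genes in 2 ways, by the closest protein-coding start site (Ensembl release 115) or by a gene's annotated span. Shares of 31-base words were counted on both strands of the RefSeq Release 6 assembly. Motifs were searched within 100 bp of the summit. The counting steps were tested on simulated data (Python 3.11.15, numpy 2.4.6, pandas 2.3.3, matplotlib 3.10.9). Members, gene lists and motifs were chosen with earlier results of these data known. The genes named were the members with all their conservative peaks, the genes nearest to such peaks, and the occupied genes of each family list with the 4 highest signals. As neighbours, sty, emc, lncRNA:CR45737 and lncRNA:CR44363 were added after their positions were seen. CG40813, Myo81F and apt were added as other genes with at least 4 peaks after their values were seen. No test was made, since 1 group has no comparison and the members were chosen on these lists. Alternatives covered the list, the IDR threshold, each replicate alone, the gene assignment and the window.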

Additional observations from a re-analysis of the deposited data

How the results depend on the processing

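How many peaks the members hold depends on how a peak is tied to a gene. Against 6 summits in the 6 spans, the nearest start site gave 29, or 27 with overlapping entries merged, and IDR of at most 0.001 gave 1. Members with at least 2 summits in the span numbered 2; they were 6 by nearest start site with or without merging, 1 with merging alone and 0 at IDR of at most 0.001, and 1 to 1 when either replicate was left out. Over all protein-coding genes, 88 held at least 2; the count was 16 at IDR of at most 0.001, 310 at 0.05, 137 with spans widened by 1000 bp, 141 by nearest start site, and 25 to 83 with 1 replicate left out, 25 without replicate 1. The median spacing in the spans, 1763.5 bp, rested on gaps of only 201, 1455, 2072 and 5122 bp. The shortest lies between the overlapping hng3 peaks 2 and 3, and with overlapping entries merged the median was 2072 bp. The median ran from 2122 to 4317.5 bp with 1 replicate left out and was 4317.5 bp without replicate 1. At IDR of at most 0.001 it could not be computed. Member peaks in both replicates' lists rose from 12 to 29 with the ranked lists. Of 48 alternative values, 32 stayed within their margin, 1.5 times for counts. The strongest peak of each member was the same by -log10 q. Within each member -log10 q ranked the peaks in the same order as the signal, so this was no separate check. Merging was chosen after seeing the data. No paired analysis was possible because there is 1 group. The depth behind every value is unknown.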
